A study of Mus musculus with 4 samples.

Results

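The extracellular matrix is the mesh of secreted proteins that embryonic cells lay down around themselves, and the integrins are the surface receptors through which cells hold on to it. Collagens and fibronectin form fibres between mesenchymal cells, whereas laminins, type IV collagen, nidogens and perlecan form the thin basement membranes under epithelia. In the embryo the fibronectin matrix and its integrin receptors are needed for somites to form, and the matrix is continually cut by proteases, which tissue inhibitors hold in check. A list of 42 genes of this kind was examined in whole mouse embryos. The genes belong together by their known function and were chosen with earlier results of these arrays known. Fap was chosen by its lower signal in the mutants on these same arrays. A probe set was matched for 41 of the 42, out of 18193 genes measured in all, and Fbn1 was not analysed here.

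RNA was taken from 2 embryos homozygous for a null allele of Nr6a1, the orphan nuclear receptor formerly named Gcnf (Nr6a1-/-, labelled Gcnf-/-), and from 2 wildtype embryos, all at embryonic day (E) 9.0 and with no treatment. Each embryo was hybridised to its own Affymetrix mouse array. The methods give a collection window that runs past the labelled stage and name C56BL/6 as the background on which the mouse lines were kept. The null allele is carried by every tissue of these mutants, and such embryos are known to develop slowly, to fail to turn and to die soon after this stage. Because somite numbers were not given in the sources used here, genotype and developmental age cannot be told apart. In whole embryos, fewer cells of a type cannot be told apart from less RNA per cell.

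All values are log2 signals from the robust multi-array average (RMA), so that a difference of 1 is 2-fold. The targeted gene, Nr6a1, read higher in the embryos labelled as mutants: all 5 of its probe sets had a positive log2 fold change (0.05 to 0.56), 4 of them without overlap between the genotypes and 0 passing an adjusted p of 0.05. Its brightest probe set read 11.87 and 12.14 in Nr6a1-/- embryos, against 11.53 and 11.80 in wildtype. Where the probes lie relative to the deletion is not known here, so that the arrays do not check the genotype labels. Wildtype replicate 1 was female by Xist and the other 3 embryos were male. That array also had the lowest signal for the spiked poly-A RNAs, by a log2 difference of -0.73 from the mean of the other arrays, and the probe sets of 18S ribosomal RNA averaged 1.06 more in mutants than in wildtype. Markers of the tissues of an embryo were bright on all arrays, among them Myl7 of heart muscle, Hba-x of primitive red cells, Sox2 of the neural tube and Meox1 of somites. Markers of yolk sac endoderm were bright too, at a mean of 13.13 and 13.00 in mutants and 13.27 and 13.16 in wildtype, although the labels name the embryo alone.

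Most matrix and integrin genes differed little between the genotypes. The median log2 fold change over the 41 genes was 0.04, with 25 above wildtype and 16 below, and over all genes, of which 47.2% lay above and 52.8% below, it was -0.01. Apart from Fap, 0 of the other 40 passed an adjusted p of 0.05 in limma, with or without a 2-fold threshold. At an unadjusted p under 0.05, 11 of these 40 were higher and 6 lower, and the shares of all genes were 11.9% in each direction. Among all genes, 0.423% were called higher and 0.121% lower at an adjusted p of 0.05 and 2-fold, and 1.02% and 0.374% whatever their fold. Counted by probe set, 0.304% were called higher and 0.0777% lower. Of these 40 genes, 3 (Postn, Sparc and Col6a2) lay above wildtype by at least 0.5 and 2 (Col2a1 and Fbn2) lay below it by as much, whereas 3.31% and 1.85% of all genes reached that size in the 2 directions. With 2 embryos per genotype an exact two-sided permutation test cannot go below p = 0.333, and the calls rest on the spread that limma shares across probe sets.

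The outcome depended on how that spread was modelled. When its prior was allowed to follow signal intensity, 10 of the 40 genes other than Fap passed an adjusted p of 0.05 in limma, 6 higher and 4 lower, and 4.64% and 4.16% of all genes passed. The 6 higher genes were Sparc, Col4a2, Col4a1, Lama1, Postn and Col6a2, and the 4 lower ones were Col2a1, Mmp2, Fbn2 and Itga3. Their fold changes were identical in both models.

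**Figure D1:**
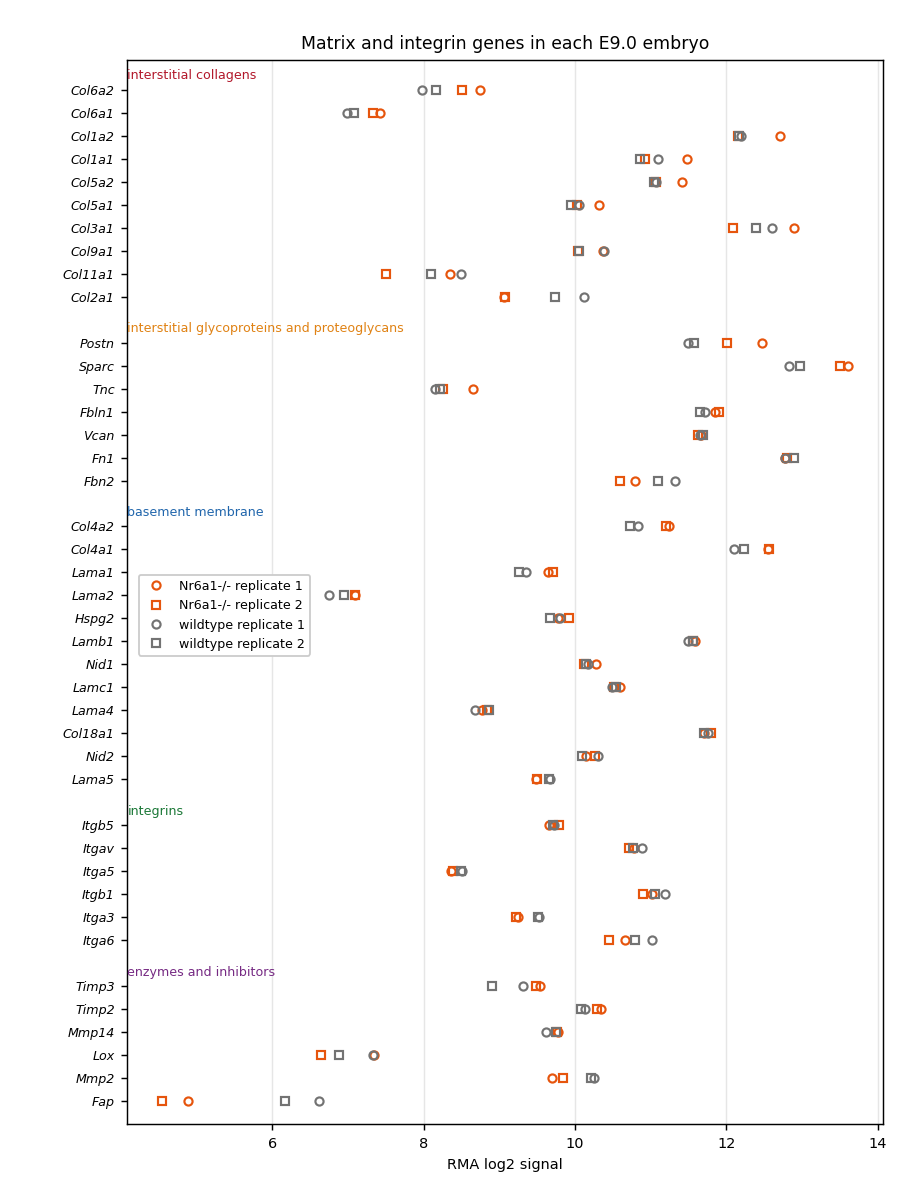
RMA log2 signal (horizontal axis) of each measured matrix and integrin gene, grouped by role; orange is Nr6a1-/-, grey is wildtype, and circles and squares are replicates 1 and 2. Fap is set furthest apart, at 4.89 and 4.54 in Nr6a1-/- embryos and 6.62 and 6.17 in wildtype.

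Fap encodes fibroblast activation protein, a serine protease on the surface of some mesenchymal cells that cuts after proline. Its single probe set read 4.89 and 4.54 in Nr6a1-/- embryos, against 6.62 and 6.17 in wildtype. The genotypes did not overlap and the means were 3.20-fold apart (log2 fold change -1.68), a value given as a description because it brought the gene into the list. The mutant signals stood at the 21.2 and 15.9 percentile of all probe sets on their arrays and the wildtype signals at the 47.1 and 40.1 percentile. Fold changes of probe sets this dim can be understated on arrays. With 1 array left out in turn the difference ran from -1.46 without wildtype replicate 1 to -1.90 without wildtype replicate 2. Dpp4, its nearest relative and like it a prolyl dipeptidase, lay on the other side of wildtype, with 10.09 and 9.87 in mutants, against 9.69 and 9.82 in wildtype (log2 fold change 0.23 ± 0.10, moderated SE, limma adjusted p = 0.309).

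The other enzymes and inhibitors lay on both sides of wildtype. Mmp2 encodes a gelatinase that degrades type IV collagen and denatured collagens. It read 9.69 and 9.84 in mutants, against 10.25 and 10.21 in wildtype. Its log2 fold change was -0.46 ± 0.08 (SE, limma adjusted p = 0.0795), its second probe set gave -0.47, and the genotypes did not overlap. Timp3, an inhibitor of metalloproteinases that stays bound to the matrix, was on the other side, at 9.54 and 9.49 in mutants and 9.32 and 8.91 in wildtype. Its 4 probe sets all lay above wildtype, by 0.41 to 0.61, and the one that stands for the gene was not called (adjusted p = 0.216). Its log2 fold change of 0.41 moved to 0.20 without wildtype replicate 2 and to 0.61 without wildtype replicate 1. Averaged over its probe sets, with p-values adjusted over 18193 genes in place of 45037 probe sets, Timp3 passed at 0.54 (limma adjusted p = 0.0397). Timp2, which both inhibits Mmp2 and takes part in its activation, had a log2 fold change of 0.21 without overlap between the genotypes. The 6 probe sets of Timp2 ran from -0.04 to 0.21. Mmp14, the membrane protease that activates Mmp2, stood at 0.09. Lox, which cross-links collagen and elastin, stood at -0.12 with embryos of the same genotype 0.70 (mutants) and 0.44 (wildtype) apart.

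Among the interstitial collagens, Col2a1 set itself apart from the rest. It encodes the type II collagen of the notochord sheath and of cartilage precursors. Its signal was 9.06 and 9.07 in mutants, against 10.12 and 9.74 in wildtype, a log2 fold change of -0.86 ± 0.14 (SE, limma adjusted p = 0.0652), and the genotypes did not overlap. Only Fap had a lower fold change on the list. Col11a1 and Col9a1, whose products assemble with type II collagen in cartilage fibrils, stood at -0.37 ± 0.30 and -0.01 ± 0.16, with overlapping genotypes. The Col11a1 value moved to -0.80 without mutant replicate 1 and to 0.05 without mutant replicate 2. Of the 10 measured markers of sclerotome and cartilage precursors 9 lay below wildtype, with a median of -0.42 and 0 passing an adjusted p of 0.05. Foxc2 read 8.83 and 8.88 in mutants, against 9.58 and 9.37 in wildtype, while Pax9 stood at 0.03. The mean signal of these markers was 7.63 and 7.50 in mutants and 8.19 and 7.85 in wildtype. Their part in the Col2a1 difference was not tested.

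The 2 listed genes of type VI collagen, a beaded filament around mesenchymal cells, both lay above wildtype. Col6a2 read 8.74 and 8.50 in mutants, against 7.98 and 8.17 in wildtype (log2 fold change 0.55 ± 0.12, SE, limma adjusted p = 0.102). Col6a1 differed by 0.34 ± 0.08, again without overlap between the genotypes. The third chain gene, Col6a3, not on the list of 42, stood at 0.59 ± 0.15.

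In the probe sets that stand for them, the genes of the fibril-forming collagens I, III and V were not separated by genotype. There the 2 mutants differed from each other by as much or more. Dimmer probe sets of Col1a2 (0.35) and Col5a2 (0.31) did lie above wildtype without overlap, and a dimmer Col5a1 probe set (-0.14) lay below it. Their remaining probe sets had overlapping genotypes. Col1a1 and Col1a2 encode the 2 chains of type I collagen. Col1a2 read 12.71 and 12.15 in mutants, against 12.19 and 12.17 in wildtype, so that only mutant replicate 1 stood out. Col1a1 followed it with 11.48 and 10.93 in mutants and 11.09 and 10.86 in wildtype. Col3a1 was at 12.90 and 12.09 in mutants, on both sides of the wildtype values of 12.60 and 12.39, and its mean difference was -0.00 ± 0.27 (its second probe set gave -0.39). Col5a1 and Col5a2, whose type V chains start collagen fibrils, differed by 0.17 and 0.18. Without mutant replicate 1, Col1a1 and Col1a2 stood at -0.04 and -0.03 and Col3a1 at -0.41.

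Of the 5 roles the interstitial collagens had the widest spread between the 2 mutants. For 9 of the 10 interstitial collagens mutant replicate 1 was above mutant replicate 2, with a median difference of 0.34, and for 8 of the 10 wildtype replicate 1 was above wildtype replicate 2, with a median difference of 0.16. The median absolute difference between the mutants was 0.09 over all genes and 0.07 over genes of mean signal 7 or more. Col11a1 (0.85) and Col3a1 (0.81) were the furthest apart. The basement membrane genes had a median absolute difference of 0.06 between the mutants and the integrins of 0.10. Between the wildtype embryos it was 0.20 for the interstitial collagens, 0.27 for the enzymes and inhibitors and 0.08 over all genes. Postn (0.46), Tnc (0.40) and Lox (0.70) outside the collagens also differed between the mutants in the same direction. No test was made of these differences, since each rests on a single pair of embryos.

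**Figure D2:**
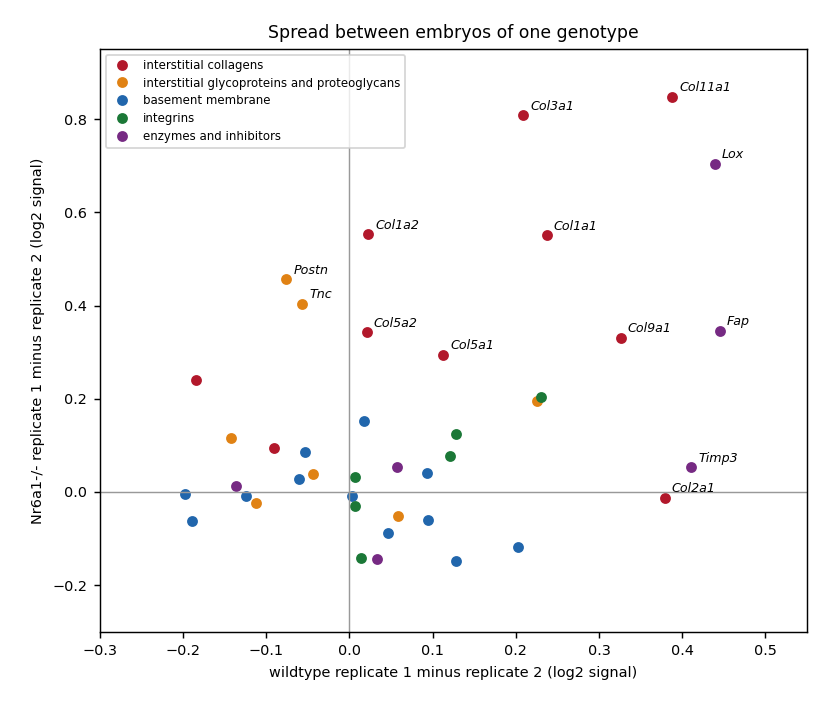
Difference between the 2 Nr6a1-/- embryos (vertical axis, replicate 1 minus replicate 2, log2 signal) against that between the 2 wildtype embryos (horizontal axis) for each measured gene, coloured by role. Basement membrane genes lie near 0 on the vertical axis, while Col11a1 (0.85), Col3a1 (0.81) and Lox (0.70) lie highest.

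The glycoproteins between cells held the highest fold change on the list as well as some of its most even genes. Postn, a secreted protein of mesenchyme and the heart cushions that binds collagen, read 12.47 and 12.01 in mutants, against 11.49 and 11.57 in wildtype (log2 fold change 0.71 ± 0.16, SE, limma adjusted p = 0.111). Sparc, a collagen-binding protein of mesenchyme and of the extraembryonic endoderm, read 13.61 and 13.50 in mutants, against 12.83 and 12.97 in wildtype. Its log2 fold change was 0.65 ± 0.09 (adjusted p = 0.0524), just short of the threshold. The genotypes did not overlap for either gene. A second Sparc probe set gave 0.45 and the third, which is dimmer, gave -0.05. Over 13 alternative fits the log2 fold change of Sparc ran from 0.35 to 0.72, and Sparc passed in 4 of them. It passed when the arrays were centred on their medians (limma adjusted p = 0.0468) and when they were quantile normalised again (0.0402). It also passed among probe sets of mean signal 6 or more (0.0291) and with the prior that follows signal intensity. Col2a1 likewise passed in 4 of the 13, and Col4a1, Col4a2 and Mmp2 in 3 each.

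Fbn2, which encodes a fibrillin of the microfibrils laid down in the embryo, lay below wildtype. Its signal was 10.79 and 10.59 in mutants, against 11.32 and 11.09 in wildtype (log2 fold change -0.51 ± 0.11, SE, limma adjusted p = 0.109), and its second probe set gave -0.41. Fn1, the gene of fibronectin, read 12.78 and 12.80 in mutants and 12.78 and 12.89 in wildtype, a difference of -0.05 ± 0.08. Vcan, a large proteoglycan that holds hyaluronan, was as even at -0.02 ± 0.07. Its 8 probe sets ran from -0.14 to 0.12, and both ends came from dim ones, of mean signal 4.5 and 4.0. Fbln1 and Tnc lay above wildtype by 0.19 and 0.27, and for Tnc mutant replicate 1 carried the difference. The other Fbln1 probe sets gave 0.02 and 0.05 with overlapping genotypes.

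In the basement membrane the type IV collagen genes and Lama1 lay above wildtype, while most of their partners stayed close to it. Col4a1 and Col4a2 encode the chains that wind together into the type IV collagen network, and the genes lie head to head. Col4a1 read 12.55 and 12.56 in mutants, against 12.11 and 12.23 in wildtype, a log2 fold change of 0.39 ± 0.08 (SE, limma adjusted p = 0.0924). Col4a2 read 11.24 and 11.20 in mutants, against 10.83 and 10.73 in wildtype, or 0.44 ± 0.07 (adjusted p = 0.0722). Both pairs of mutants lay within 0.04 of each other and above both wildtype embryos, and the second Col4a1 probe set gave 0.43. Because the genes differed by like amounts, the start region that they share is printed here. Its part in these differences was not tested. The windows run from 250 bases before to 50 bases after each start in RefSeq (GRCm38.p6), at chr8:11312777-11313076 on the minus strand for Col4a1 and chr8:11312555-11312854 on the plus strand for Col4a2. Capitals mark the 78 bases that both windows hold, which are the reverse complement of each other.
Col4a1: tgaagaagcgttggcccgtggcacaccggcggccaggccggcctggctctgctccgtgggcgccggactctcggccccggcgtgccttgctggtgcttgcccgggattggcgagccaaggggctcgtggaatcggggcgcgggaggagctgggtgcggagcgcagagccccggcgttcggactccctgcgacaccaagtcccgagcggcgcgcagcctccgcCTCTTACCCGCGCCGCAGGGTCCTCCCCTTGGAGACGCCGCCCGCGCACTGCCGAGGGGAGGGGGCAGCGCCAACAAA
Col4a2: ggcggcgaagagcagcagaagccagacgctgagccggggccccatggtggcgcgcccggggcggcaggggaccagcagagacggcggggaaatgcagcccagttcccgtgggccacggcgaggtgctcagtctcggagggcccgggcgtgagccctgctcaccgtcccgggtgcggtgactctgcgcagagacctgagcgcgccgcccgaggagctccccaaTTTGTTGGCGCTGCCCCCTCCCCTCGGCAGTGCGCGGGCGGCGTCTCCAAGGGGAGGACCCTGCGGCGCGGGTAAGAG

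As annotated, the 2 transcripts overlap by 22 bases at their 5′ ends. The windows are 74.0% (Col4a1) and 73.7% (Col4a2) G or C. Each holds 1 CCAAT box, and the GC box GGGCGG was found once in the Col4a1 window and 3 times in the Col4a2 window, counting both strands. Nr6a1 is known to bind the half-site AGGTCA repeated head to tail with no spacer, and also a single extended half-site, TCAAGGTCA. Windows were matched for 29 of the 42 genes. Neither motif was found in any of them on either strand, and TCAAGGTCA occurs in 0.466% of the 27025 genes with a window and the repeated half-site in 0.0037%. The half-site alone, AGGTCA, which the longer motifs contain, was found in 3 of the 29, Postn, Col9a1 and Col11a1, and in 18.1% of all genes. A missing match says only that these letters are not in these windows.

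Lama1 encodes the laminin chain of the earliest basement membranes and of extraembryonic endoderm. It read 9.65 and 9.71 in mutants, against 9.35 and 9.26 in wildtype (log2 fold change 0.38 ± 0.08, SE, limma adjusted p = 0.0944). Lamb1 and Lamc1, whose products join it in the laminin trimer, stood at 0.05 ± 0.07 and 0.04 ± 0.07. Lamb1 is measured by a probe set that can share sequence with other transcripts. Its 4 probe sets ran from -0.29 to 0.07, only 2 of them above wildtype. Of the other alpha chain genes, Lama2 lay above wildtype by 0.24, Lama5 below it by a log2 fold change of -0.17, and Lama4 stood at 0.03. The 3 probe sets of Lama5 ran from -0.17 to 0.17, and the dimmest (mean signal 5.63) lay above wildtype without overlap. The linker genes Nid1 and Nid2 (0.04 and 0.01), Hspg2, which encodes perlecan (0.11), and Col18a1 (0.02) had overlapping genotypes. Of all 12 basement membrane genes 11 had a positive fold change, the median being 0.04, and the genotypes did not overlap for 6 of them, 5 above and 1 below. Among all genes, both mutants lay above both wildtype embryos for 26.2% and below them for 30.4%.

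Col4a1, Col4a2, Lama1 and Sparc are also products of the parietal endoderm, the extraembryonic layer that secretes the thick basement membrane around the conceptus. These genes were all among the higher ones. Lamb1, Lamc1, Nid1 and Hspg2, whose products belong to the same membrane, stayed closer to wildtype (0.05, 0.04, 0.04 and 0.11). The genes of this membrane were thus split between higher and even ones. Of 10 other markers of the parietal endoderm, 9 were higher in value in the mutants (median log2 fold change 0.52). The mean signal of the 10 was 9.17 and 9.17 in mutants, against 8.68 and 8.71 in wildtype. Pth1r, the receptor for parathyroid hormone related protein, read 11.06 and 10.97 in mutants, against 9.73 and 9.73 in wildtype, and was called higher (log2 fold change 1.29 ± 0.07, limma adjusted p = 0.0133). Gata6 (0.57), Thbd (0.72), Fst (0.56) and Krt19 (0.70) lay above wildtype without passing, and Snai1 was the marker below it. Several of these, Pdgfra, Gata6, Fst and Snai1 among them, are also expressed inside the embryo, and Plat and Lamb3 also stand on the lists of further matrix genes. Heart muscle markers were above wildtype at 9 of 10 (median 0.36, 1 passing an adjusted p of 0.05) and primitive red cell markers at 9 of 9 (median 0.57). The mean signal of the heart markers was 11.68 and 11.58 in mutants and 11.08 and 11.36 in wildtype. That of the red cell markers was 11.89 and 11.81 in mutants and 11.27 and 11.50 in wildtype. In both lists wildtype replicate 1 was the lowest array. Endothelial markers were split, 5 above and 5 below wildtype, with log2 fold changes from -0.50 to 0.34 and a median of 0.00. Trophoblast and decidua markers were above wildtype at 4 of 6 (median 0.18), and yolk sac endoderm markers were below it at 7 of 9 (median -0.16). Among markers below wildtype were 8 of 9 of neural crest (median -0.35, mean signal 8.57 and 8.51 in mutants and 8.91 and 8.83 in wildtype) and 7 of 10 of macrophages (median -0.20, mean signal 6.18 and 6.15 in mutants and 6.47 and 6.41 in wildtype). Sox9 (-0.38) and Twist1 (-0.12) stand on both the neural crest and the sclerotome list, so that these lists are not separate. The macrophage receptor gene Fcgr3 was called lower, at 7.36 and 6.97 in mutants, against 8.64 and 8.63 in wildtype (log2 fold change -1.47 ± 0.14, limma adjusted p = 0.0305). The single markers and Col6a3 were named after their values were seen. The part of any of these cells in the differences of matrix genes was not tested.

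The 6 integrins on the list leaned the other way, whereas the 18 other measured integrins were split, 9 above wildtype and 9 below. Of the 6 genes 5 lay below wildtype, with a median of -0.15, and for 4 of them, Itga3, Itga5, Itga6 and Itgb1, both mutants were below both wildtype embryos. Among all genes 52.8% lay below wildtype, and both mutants were below both wildtype embryos for 30.4%. Of the 11307 genes of mean signal 7 or more, 4133 had both mutants below. Itga6, a receptor chain for laminins, read 10.66 and 10.46 in mutants, against 11.02 and 10.79 in wildtype (log2 fold change -0.35 ± 0.12, SE, limma adjusted p = 0.198), and its second probe set gave -0.31. Itga3, the other laminin receptor chain on the list, read 9.25 and 9.22 in mutants, against 9.53 and 9.52 in wildtype (-0.29 ± 0.07, adjusted p = 0.115). Its 3 probe sets were all below wildtype, by up to -0.29. Itgb1, the shared beta chain with which these alpha chains pair, stood at -0.17 ± 0.09, and 5 of its 6 probe sets lay below wildtype. The dim ones among them, of mean signal 3.80 to 3.99, lay on both sides (-0.05, -0.03 and 0.10). Itga5, which with Itgb1 forms the main fibronectin receptor, stood at -0.12 ± 0.07 and Itgav, the alternative alpha chain for fibronectin, at -0.07 ± 0.08. The 5 probe sets of Itgav ran from -0.17 to 0.15, and dimmer ones lay without overlap on both sides of wildtype (0.15 and -0.10). Itgb5, a partner of Itgav, was at 0.01. Itga5 is measured by a probe set that can share sequence with other transcripts, and its 3 probe sets without this mark ran from -0.07 to 0.13.

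**Figure D3:**
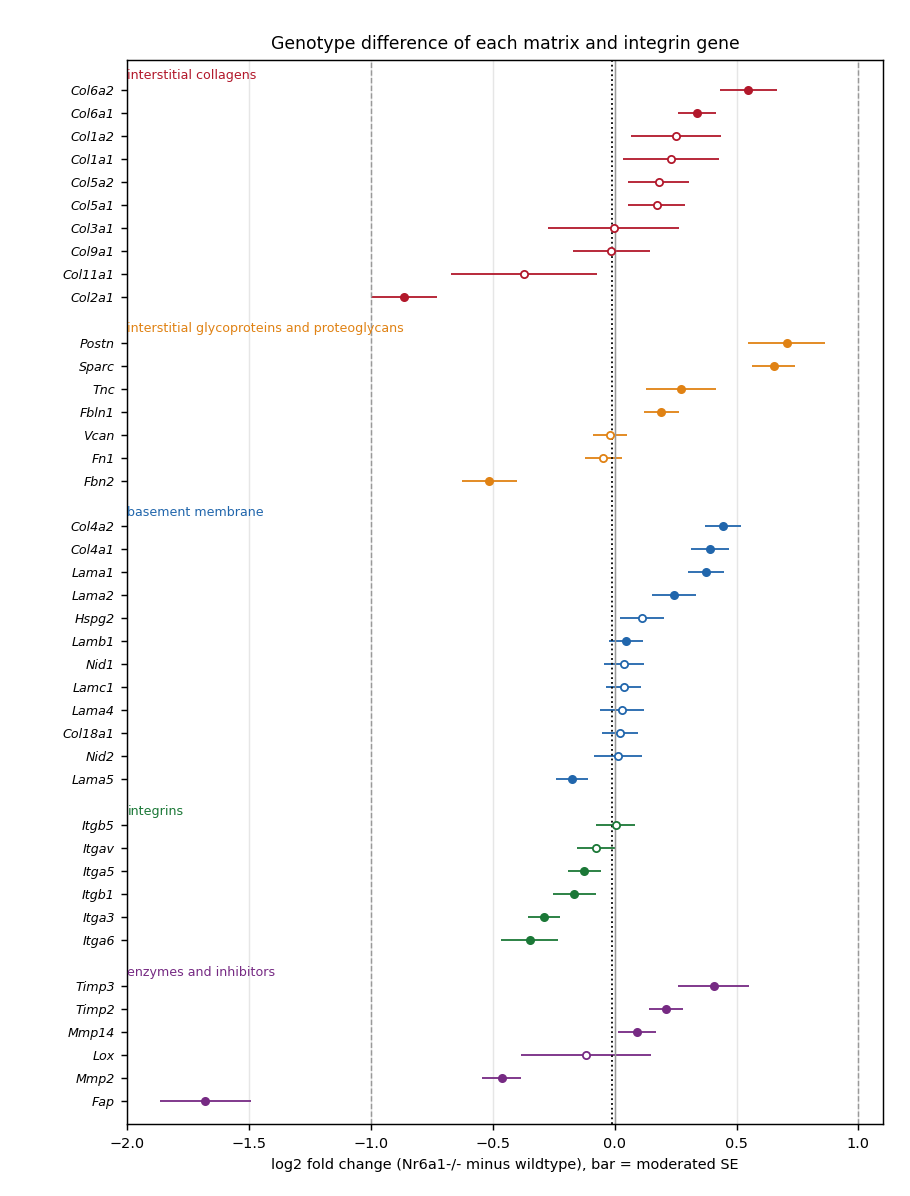
Horizontal axis, log2 fold change of Nr6a1-/- over wildtype for each measured gene by role, with bars for the moderated SE from limma (2 embryos of each genotype); filled points are genes whose genotypes did not overlap, dashed lines mark 2-fold and the dotted line the median of all genes (-0.01). Col4a2, Col4a1 and Lama1 lie above their laminin and nidogen partners, 5 of 6 integrins lie below 0, and Fap is past the 2-fold line.

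Further genes of the matrix were read from lists of other collagens, laminins and basement membrane proteins, integrins, glycoproteins, proteoglycans, collagen-processing enzymes and proteases. Of 176 such genes 167 were measured. Their median log2 fold change was 0.00, with 79 above wildtype and 88 below. In limma 1 passed an adjusted p of 0.05 as higher and 0 as lower, and the shares of all genes were 1.02% and 0.374%. At an unadjusted p under 0.05, 19 were higher and 28 lower, beside 11.9% of all genes in each direction. The one that passed was Htra1, a secreted serine protease, at 8.05 and 8.18 in mutants, against 7.32 and 7.43 in wildtype (log2 fold change 0.74 ± 0.09, SE, limma adjusted p = 0.0430), short of 2-fold. Pcolce, named here after its values were seen, enhances the cleavage of procollagen and had the largest value of these lists, with 11.52 and 11.15 in mutants, against 9.53 and 10.08 in wildtype (1.53 ± 0.21, adjusted p = 0.0554). By list the medians ran from -0.02 for the other collagens to 0.02 for the collagen-processing enzymes. The 18 other integrins were split evenly, 9 above and 9 below wildtype.

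**Figure D4:**
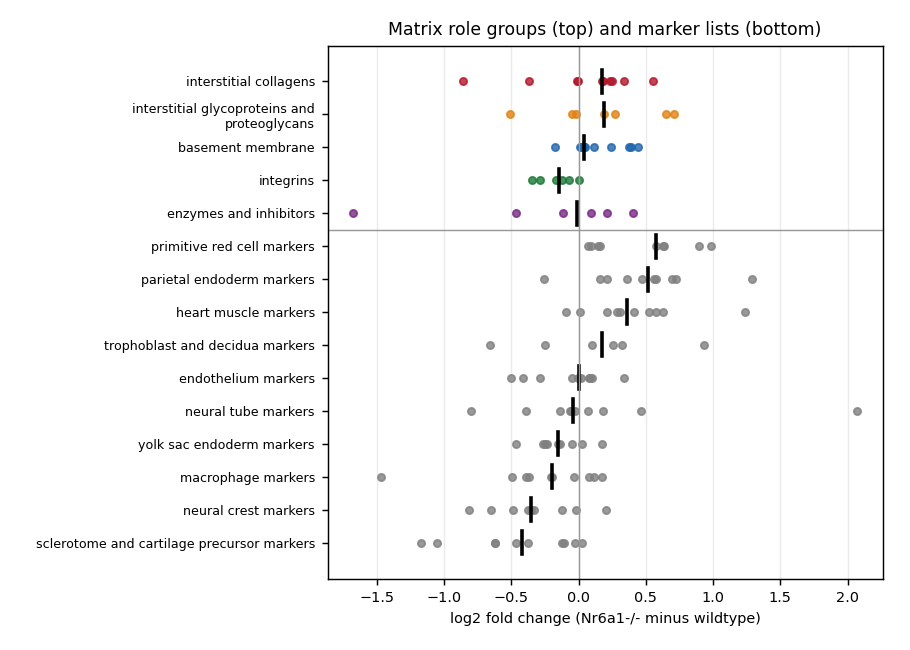
Horizontal axis, log2 fold change of Nr6a1-/- over wildtype; points are the measured genes of the matrix role groups (above the line) and of the marker lists for other cell types (below it), with black bars for list medians. The role medians lie between -0.15 (integrins) and 0.19 (interstitial glycoproteins and proteoglycans), while the marker medians run from -0.42 (sclerotome and cartilage precursors) to 0.57 (primitive red cells).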

How the data were processed

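Whole-embryo RNA of 2 Nr6a1-/- and 2 wildtype embryos was measured on Affymetrix Mouse Genome arrays, and samples were grouped by the genotype in the labels. The authors deposited RMA values on the log2 scale; RMA corrects the background, quantile normalises the arrays and summarises each probe set, so that shifts shared by most transcripts are removed. Its version is not given in the sources used here. Of 45101 probe sets, 64 controls were left out, and 45037 were fitted with lmFit and eBayes of limma 3.58.1 (R 4.3.3), genotype being the only term, as the study's methods name RMA and limma without a covariate. Benjamini-Hochberg adjustment ran over all 45037, and calls needed an adjusted p of 0.05 and 2-fold, the study's thresholds. The moderated SE draws on a prior standard deviation of 0.0849 with 3.16 prior degrees of freedom, and precision is limited by the number of arrays. Replicates were taken as separate embryos, since the methods describe extraction from each embryo.

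The platform annotation gave 34945 probe sets 1 symbol, 932 several and 9160 none; symbols were checked through Entrez identifiers in RefSeq (GRCm38.p6), which matched 34741 and changed 0. The probe set of highest mean stood for its gene, the mean being taken over the 4 arrays. The 42 genes, the further matrix lists, the 10 marker lists and the rule for naming genes (those with a change of at least 0.5 or an adjusted p of 0.05, with their partner chains) were chosen with earlier results of these data known. As alternatives the fit was repeated with a block for replicate number, without each array, without dim probe sets, after median centring or another quantile normalisation, with an intensity trend or robust eBayes, without probe sets marked for shared sequence, and with each gene taken as the mean of its probe sets or as the probe set of lowest p. The fit was tested on simulated data with planted changes.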

Additional observations from a re-analysis of the deposited data

How the results depend on the processing

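With 2 arrays per genotype, calls were lost whenever an array or a degree of freedom was removed. Leaving out 1 array in turn gave 0 to 9 called probe sets against 172, and 0 to 0 of the 41 genes passed, from fewer samples by construction, with the lone embryo assumed to vary like the other genotype. With all arrays, 18 of the 41 genes, Fap among them, had an unadjusted p under 0.05 in limma. With the replicate number as a block, 0 probe sets, 0 called genes and 0 genes at an adjusted p of 0.05 were found in limma (8358 probe sets and 15 genes at an unadjusted p under 0.05), with 1 fewer residual degree of freedom. The numbers pair nothing known, as the deviations of same-numbered embryos correlated at 0.06. In the comparison reported, 0 of the 40 genes other than Fap passed an adjusted p of 0.05. Fap did pass, but it was listed for its lower signal on these same arrays, so that its pass is description only. With Fap counted, 2 genes passed with median centring and 3 with repeated quantile normalisation. Among probe sets of mean signal 6 or more, where Fap was filtered out, 6 genes passed and 0 were called. When probe sets were averaged per gene and adjusted over 18193 genes, 7 passed, Fap included. With an intensity trend, which called 260 probe sets, 11 passed with Fap and 10 without it. The cause of these shifts was not tested. The median over the 41 genes ran from 0.01 to 0.12 over all alternatives. Of the 41 genes, 17 had another sign in at least 1 alternative; the block, the intensity trend and robust eBayes leave fold changes as they are. Scaling moved the median of all probe sets by less than 0.1, from -0.01 as deposited to -0.03 with median centring.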
